A study of Mus musculus with 6 samples.

Results

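The expression levels described here are those of neutrophils from the blood of wild-type mice, kept for 4 h in hypoxia at 3% oxygen. They were chosen by genotype label, which gave 3 of the 6 arrays of the series, numbered 1 to 3. Per the labels, the mice were on a C57 background (the source label reads bl6), and each array held the total RNA of neutrophils drawn from 1 mouse by negative magnetic selection, a method that removes other cells with antibodies and leaves the wanted ones untouched. The remaining 3 arrays came from phd3 null mice treated in the same way. They are named below only where an array of the same number is set beside a wild-type one. All samples shared the hypoxia, and cells in normal oxygen were not analysed here, which makes each value a level in hypoxia and not a response to it.

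The measurement was the Affymetrix MAS5 signal, a linear intensity computed for each probe set from its probes, 1 array at a time. Levels were averaged as log2(signal + 16), each gene was represented by its brightest probe set, and a gene's percentile is its place among all 18193 genes measured. Probe sets bind their targets unequally, so the order of genes is an order of signals and not of transcript numbers. Signals are given for samples 1, 2 and 3 in that order, errors are the SD of the signal over the 3 arrays (n = 3), and no test was made, since there is 1 group. All 3 arrays had a similar scale, with median signals of 49.4, 51.1 and 60.3.

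Neutrophils are short-lived phagocytes that leave the marrow with their granule proteins already made. They kill microbes with those proteins and with oxygen radicals from the NADPH oxidase, and they release cytokines that signal to other cells. They have few mitochondria in use and draw their energy mostly from glycolysis, which suits them to tissue short of oxygen. In low oxygen the prolyl hydroxylases, among them PHD3 (gene Egln3), slow down, the HIF transcription factors persist, and genes of glycolysis and of survival are transcribed.

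The label was checked against 14 neutrophil markers, of which 12 had a probe set that names 1 gene. The calprotectin genes S100a8 and S100a9, which encode the most abundant neutrophil cytosolic protein, gave the brightest 2 signals of all genes. S100a9 read 24367, 19936 and 20746 in the 3 arrays (21683 ± 2359.5), and S100a8 read 25479.7, 20951 and 17949 (21459.9 ± 3791). Csf3r, the receptor for the granulocyte growth factor G-CSF, read 2787, 2113 and 1746, at percentile 98.7. Cxcr2, the receptor for the chemokines that call neutrophils to tissue, read 559, 837 and 227, at percentile 92.4, and sample 3 was the lowest. In all, 9 of the 12 markers lay in the brightest 10% of all genes, called the top 10% below. The list's summed signal was 60855 in sample 1, 48536 in sample 2 and 46721 in sample 3, highest in sample 1. S100a8 and S100a9 made up most of it in each array. Hdc, the histamine-making enzyme, Il1r2, the decoy receptor for interleukin-1, Mmp8, Itgam and Trem1 were also in the top 10%. Mmp9 at percentile 88.4, G0s2 at 76.1 and Cd177 at 73.4 were dimmer.

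Markers of other blood cells were bright as well, foremost those of monocytes. Csf1r, the receptor for the monocyte growth factor, was the 19th brightest of all genes, at 11088, 10046 and 4049. F13a1, the clotting factor XIII subunit made by monocytes, read 4135, 4350.2 and 475. The monocyte list had 10 of 14 genes in the top 10%. Ms4a6c read 807, 1529 and 473, Adgre1 (F4/80) read 1198, 1039 and 333, and the chemokine receptors Ccr2 and Cx3cr1 read 284, 997 and 385 and 298, 764 and 361. The complement genes C1qa, C1qb and C1qc of tissue macrophages lay at percentiles 1.9, 28.2 and 9.4. The summed signal of the list was 33117, 36065 and 20438, lowest in sample 3. Lyz2, Ctss, Cd68 and Spn of this list are also made by neutrophils or lymphocytes.

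Among erythroid markers, Alas2, the first enzyme of haem synthesis in red cells, read 2371, 5529.7 and 4111, and 5 of 12 genes were in the top 10%. NK cell markers had 3 of 14 there, led by the granzyme Gzma at 789.7, 3717 and 1854, and B cell markers 5 of 15, led by the class II genes H2-Aa and Cd74 at 873, 1799 and 2960.4 and 588, 1420.3 and 3910.4. These 3 lists differed widely between the arrays. Summed NK signal was 2171 in sample 1, 9424 in sample 2 and 6551 in sample 3. Summed B cell signal was 2614, 5600.1 and 14665, and summed erythroid signal 6698, 14189 and 11635. T cell (0 of 16), platelet (0 of 13), eosinophil (0 of 6), basophil and mast cell (0 of 8) and endothelial (0 of 9) markers had no gene in the top 10%. The label names neutrophils only, so the monocyte, erythroid and lymphocyte signals go against a sample of neutrophils alone. In such bulk RNA, fewer cells of a type and less RNA per cell cannot be told apart. The part of these cell types in the results below was not tested.

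**Figure D1:**
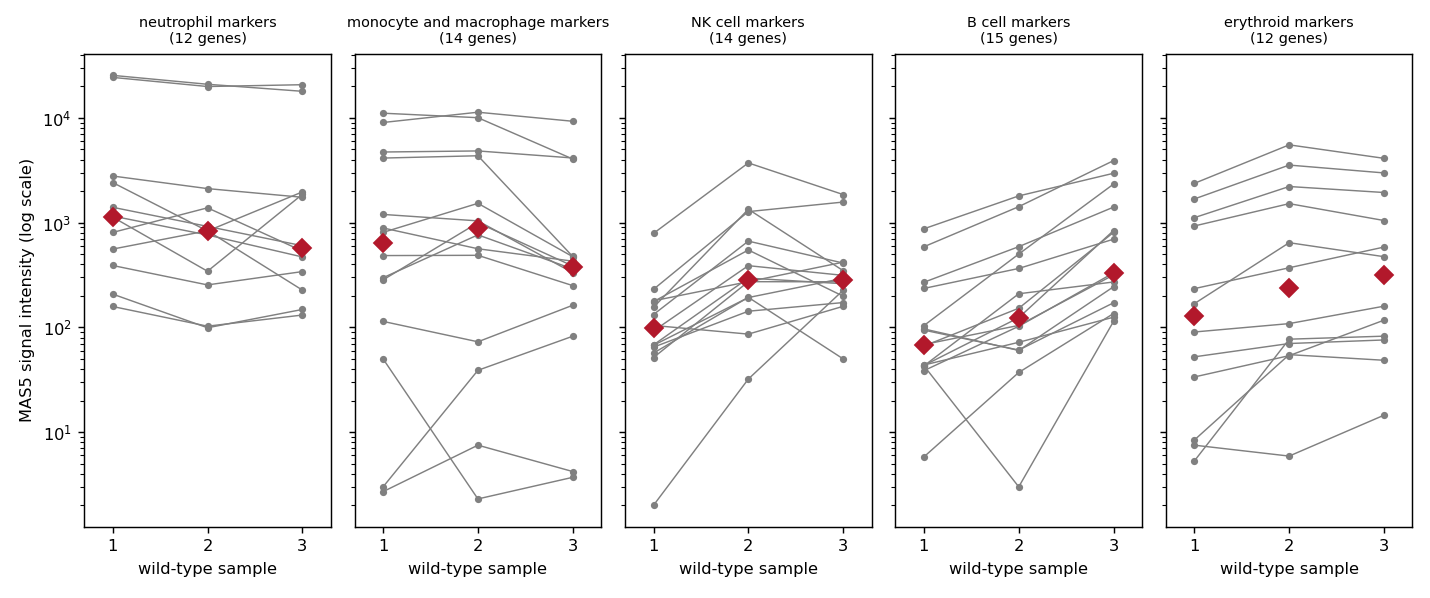
Signal of each marker gene (grey points, joined across arrays to follow 1 gene) in wild-type samples 1, 2 and 3 on a log scale, with red diamonds for the list's median, for 5 cell types. The 2 brightest neutrophil markers stay between 17949 and 25479.7 in every array, while B cell markers are highest in sample 3 and NK cell markers lowest in sample 1.

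Behind S100a9 and S100a8, the brightest signals came from genes of iron storage, lysozyme, translation and the cytoskeleton, and from a set of inflammatory genes. Fth1, the ferritin heavy chain that stores iron, read 21631, 18086 and 13061 (17593 ± 4306). Both lysozyme genes, which encode the enzyme that cuts bacterial walls, were among the first 15, Lyz1 at 14028 ± 1126 and Lyz2 at 9886 ± 1258. Their sequences are close, so their signals may mix. Srgn, the proteoglycan core that packs granules, read 12939.9 ± 2213. Actb and Tmsb4x, actin and the peptide that holds it unpolymerised, read 12469 ± 350.5 and 12485 ± 1485. Nfkbia, the inhibitor that shuts off NF-kB after it fires, read 12967 ± 1509, and Il1b, the cytokine interleukin-1 beta, 9698 ± 4990.1. Il1b differed most between arrays among the 25 brightest genes after Mpeg1, with 14854, 9347 and 4893. Clec4d, a lectin that senses fungi and mycobacteria, read 17104, 11116 and 8493, and Mcl1, the short-lived protein on which neutrophil survival rests, 10944, 6591 and 5341. Mpeg1, the pore-forming perforin-2 of phagocytes, read 12009, 8732 and 3590.1. Ptprc (CD45), carried by all white cells, was at 6946 ± 689.5, and B2m, the light chain of MHC class I, at 10474 ± 332. The rest of the 25 were the translation genes Tpt1, Eef1a1, Rps29, Rps28, Rps3a1 and Rps14, Btg1, which restrains growth, Oaz1, which regulates polyamines, and Lgals3, a lectin of myeloid cells.

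**Figure D2:**
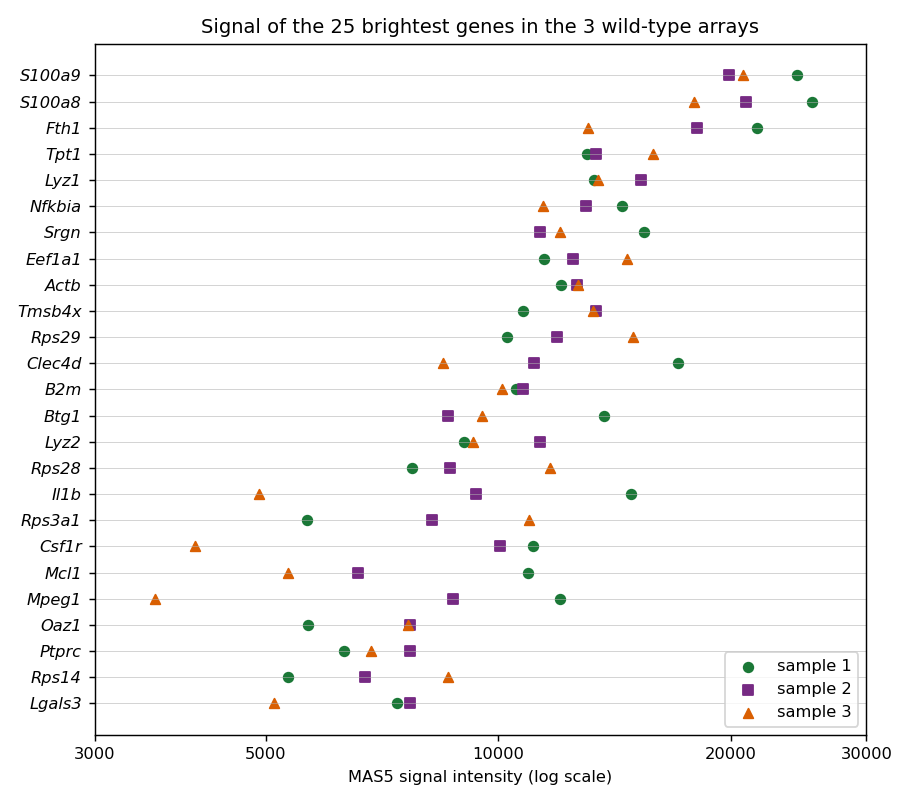
MAS5 signal of the 25 genes of highest mean level, 1 row per gene, in wild-type samples 1 (circles), 2 (squares) and 3 (triangles), on a log axis. Actb and B2m nearly coincide in the 3 arrays, while Il1b, Csf1r and Mpeg1 are lowest in sample 3 and the ribosomal genes are highest there.

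The 25 brightest genes took 7.7%, 7.7% and 7.4% of the summed gene signal in samples 1 to 3, and the 1000 brightest 55.5%, 51.6% and 48.9%. The choice of probe set matters for who is named. Of the 100 brightest genes, 62 stayed among the 100 when all probe sets of a gene were averaged, and 43 when probe sets that may bind several transcripts were avoided. Leaving out sample 3 kept 82 of them.

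The promoters of the 100 brightest genes held TATAAA, the letters of a TATA box, at a higher share than those of all genes. RefSeq gave a window from 250 bases before to 50 after the start site (build GRCm38.p6) for 82 of these genes, and 26 of them, 31.7% (exact Clopper-Pearson 95% interval 21.9% to 42.9%, for counting error only), held TATAAA on either strand. The share among all 8838 genes at or above the median level with a window was 10.1%, and among all 32851 windows 13.6%. It was 22.5% when multi-transcript probe sets were avoided. A match could lie at any position in the window, and it is a run of letters and not a site in use. Below, a stretch of 120 bases upstream of the start site, placed to hold the motif, is shown for 4 of the brightest genes, with TATAAA in capitals. They lie on chr3:90668951-90669070 for S100a8 (+ strand), chr2:129371140-129371259 for Il1b (- strand), chr10:62527484-62527603 for Srgn (- strand) and chr10:96616881-96617000 for Btg1 (+ strand).
S100a8: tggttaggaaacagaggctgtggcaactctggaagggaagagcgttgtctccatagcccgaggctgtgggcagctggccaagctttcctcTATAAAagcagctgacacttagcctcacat
Il1b: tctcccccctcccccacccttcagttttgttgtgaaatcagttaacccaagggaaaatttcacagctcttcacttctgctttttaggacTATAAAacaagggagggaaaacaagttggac
Srgn: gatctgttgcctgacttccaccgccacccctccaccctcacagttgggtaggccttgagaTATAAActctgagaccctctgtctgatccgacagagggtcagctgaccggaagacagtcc
Btg1: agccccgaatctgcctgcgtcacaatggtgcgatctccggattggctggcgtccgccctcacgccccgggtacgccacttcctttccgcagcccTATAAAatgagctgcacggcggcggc

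Granule genes were listed by the stage at which they are made. Azurophil genes had 5 of 11 in the top 10% (median percentile 71.0) and specific granule genes 8 of 15 (94.8). The azurophil genes that mark the earliest precursors were dim. Mpo (myeloperoxidase) lay at percentile 37.5, Ctsg (cathepsin G) at 45.1, Elane (neutrophil elastase) at 24.4 and Prtn3 (proteinase 3) at 10.3, with signals from 2.7 to 107. The 5 bright genes of the azurophil list were lysozymes and the cathepsins Ctsb, Ctsc and Ctsd, which other cells also make. The 8 bright specific granule genes, a list of proteins made later, included B2m and Cybb, which are also in the MHC class I and NADPH oxidase lists. Slpi, a protease inhibitor, read 9033, 4482 and 1702, Lcn2, which traps bacterial iron carriers, 2525, 894 and 1341, and Ngp 872, 609 and 604. Chil3, a chitinase-like protein of neutrophils and macrophages, read 1497, 5269 and 3386, and sample 1 was the lowest. The other granule genes Camp and Ltf (cathelicidin and lactoferrin) stood at percentiles 80.2 and 80.0, with 204, 177 and 165 and 198, 179.5 and 159. Of cell cycle genes 1 of 22 was in the top 10%. It was Pcna, the clamp of DNA replication, at 1227, 1442 and 3667. The proliferation marker Mki67 read 62, 38.6 and 295.

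Surface receptors and adhesion genes of phagocytes were bright. The adhesion list had 12 of 14 genes in the top 10%, among them Itgb2, the shared chain of the leukocyte integrins, at 4131, 4232 and 2524, and Cd44, the hyaluronan receptor, at 6195, 3421 and 3282. Pattern recognition and Fc receptors had 16 of 26. Cd14, the co-receptor for bacterial lipopolysaccharide, read 11272, 5503 and 4419.5, Clec4e, a receptor for mycobacterial glycolipid, 11818, 6568 and 2738, and Tlr2 5364, 2813 and 1221. Of chemoattractant receptors 5 of 12 were there, led by Cxcr4, the receptor that holds neutrophils in the marrow and brings aged ones back, at 2593, 1732 and 3509. The NADPH oxidase had 7 of 8. Its catalytic subunit Cybb read 5352, 5750.3 and 1969.9, its partner Cyba 2349, 1254 and 610.0, and the cytosolic subunits Ncf1 and Ncf4 2015, 1386 and 605 and 1796, 1207 and 384.

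Chemokines and cytokines had 14 of 25 genes in the top 10%. Cxcl2, a chemokine that draws more neutrophils, read 14166, 4687 and 3389, and Ccl3, which draws monocytes, 6115, 1717 and 1745. Sample 1 was the highest for both. Immediate early genes, the first to be transcribed after a stimulus, had 21 of 30, with Dusp1, which switches off MAP kinases, at 5415, 3169 and 4187 and Ier3 at 4644, 2917 and 1735.

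Glycolysis genes had 16 of 19 in the top 10%, and HIF targets outside glycolysis 15 of 24. Pgk1, phosphoglycerate kinase, read 8957, 7617 and 2059, Aldoa, aldolase, 6395, 4725 and 1258, Slc2a1, the glucose transporter GLUT1, 5455, 3349.7 and 1004, and Ldha, which makes lactate, 4677, 4149.7 and 896. Hmox1, which breaks down haem, read 9805, 7544 and 3626, and Hif1a itself 3974, 2407 and 748. In each of these 6 genes sample 3 was the lowest. Vegfa, the vessel growth factor, Car9 and Adm, known targets in other cells, were at percentiles 76.1, 61.4 and 26.6. Among the oxygen-sensing hydroxylases, Egln3 (PHD3) read 2088, 1734 and 327, Egln1 (PHD2) 421, 335 and 145 and Egln2 (PHD1) 249.9, 250.5 and 109.8. Respiratory chain subunits had 15 of 29 in the top 10%, with a median percentile of 90.9. The wider family of all 44 measured complex I genes was dimmer, with 7 in the top 10% and a median percentile of 78.

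The promoters of the HIF lists are shown for the core of the hypoxia response element, ACGTG or GCGTG on either strand, since these genes come up again below. It was found in all 21 HIF targets with a window and in 17 of 18 glycolysis genes, against 64.1% of the 8838 genes at or above the median level (5668 genes). The letters are common, and the lists were drawn from known targets, so the count describes them and is not evidence of binding. Capitals mark the core. A CACGTG holds it on both strands. The stretches lie on chr7:138909523-138909642 for Bnip3 (- strand), chr14:45318609-45318728 for Ero1a (- strand), chrX:106186899-106187018 for Pgk1 (+ strand) and chr12:54204005-54204124 for Egln3 (- strand).
Bnip3: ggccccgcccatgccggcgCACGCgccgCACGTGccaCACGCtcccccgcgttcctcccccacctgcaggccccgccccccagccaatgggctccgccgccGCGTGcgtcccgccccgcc
Ero1a: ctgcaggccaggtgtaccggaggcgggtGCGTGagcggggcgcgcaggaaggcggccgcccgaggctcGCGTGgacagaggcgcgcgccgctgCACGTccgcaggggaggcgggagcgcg
Pgk1: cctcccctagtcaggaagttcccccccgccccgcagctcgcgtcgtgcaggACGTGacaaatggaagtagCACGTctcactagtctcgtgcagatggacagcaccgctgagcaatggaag
Egln3: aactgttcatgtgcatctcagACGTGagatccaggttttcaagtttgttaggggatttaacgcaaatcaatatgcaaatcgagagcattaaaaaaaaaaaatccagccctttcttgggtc

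The highest list medians belonged to housekeeping and motility. Cytosolic ribosomal proteins had a median percentile of 99.4 (26 of 30 in the top 10%), the actin cytoskeleton 99.1 (21 of 25) and translation factors 98.7 (13 of 13). S100 proteins and annexins followed at 98.4, then glutathione and thioredoxin genes at 97.9 (14 of 19), which detoxify oxidants. Txn1, thioredoxin, read 8081, 6630.3 and 2671, and Slc7a11, the cystine importer, 5829, 3393 and 3094. Lysosome and autophagy genes had 20 of 24, with the receptor Sqstm1 (p62) at 7793, 4998 and 3656. Survival and death genes were both seen: Bcl2l11 (Bim), which promotes apoptosis, read 2454, 2094 and 1352, and Birc3, which blocks it, 3202, 1926 and 449.6. Of the 31 function lists, 18 had a median in the top 10%, and 19 without sample 3.

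**Figure D3:**
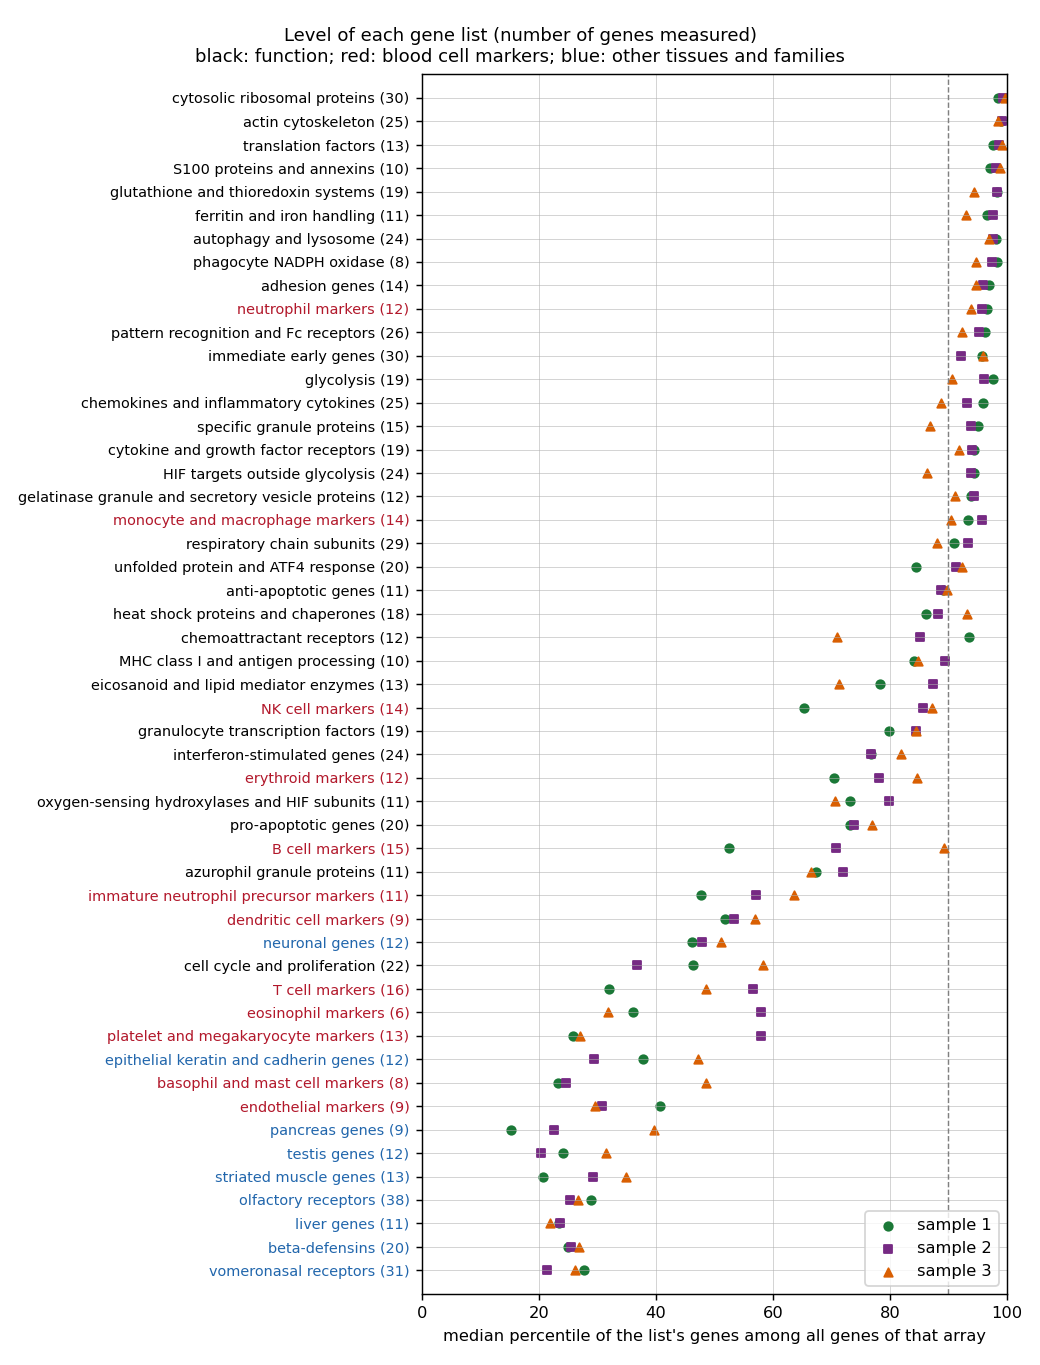
Median percentile of each list's genes among all genes of wild-type samples 1 (circles), 2 (squares) and 3 (triangles), with the number of genes measured in parentheses and a dashed line at percentile 90. Ribosomal, actin and translation genes lie at the right edge in every array, olfactory and vomeronasal receptors lie below percentile 30, and the B cell and platelet markers are spread widest between the arrays.

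At the dim end were genes of other tissues. The 38 olfactory receptor genes, which serve smell and served here as a dim reference, had a median signal of 31.4, and 44.5% of all genes (8103) lay above the 95th percentile of their levels. Vomeronasal receptors had a median percentile of 17.1, beta-defensins of 18.9, liver genes of 21.4 and Hox genes of 23. None of 11 liver, 13 striated muscle, 12 testis or 9 pancreas genes was in the top 10%. Of neuronal genes 1 of 12 was, Mbp, whose gene also makes golli transcripts in blood cells, at 369.7, 382 and 373. The 10 dimmest genes, with signals from 0.6 to 3.0 in every array, were Gsto2, Iqub, Scara3, Crh, Mas1, Gm5148, Gm7967, 1700099I09Rik, Krtap19-2 and Lncpint. Crh encodes the hormone that starts the stress response in the brain, and Mas1 a receptor for angiotensin fragments. Such signals carry no statement of presence or absence.

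By the probe set that represents each, some bright genes hardly differed between the 3 mice. The 10 of smallest range in the top 10% were Etf1 with 565, 558 and 563, Kdm5b, Mbp, Cnot2, Elk4, H2-D1, H2-K1, Actb, Pttg1 and Fkbp1a. Their range, the largest minus the smallest log2(signal + 16), was from 0.02 to 0.07. H2-D1 and H2-K1, heavy chains of MHC class I, read 6330.1, 6558 and 6600.1 and 4826, 4695 and 4606, and Actb 12065, 12659.9 and 12683. The array control probe sets for Actb differed more, at 10973, 13919 and 11042.6 (3′) and 5248.7, 8516.9 and 6428.8 (5′). The steadiness is that of the probe set chosen.

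Across all genes the arrays differed much more. Of the 10984 genes at or above the median level of all probe sets, 38.1% (4180) had a range above 1 log2 unit, which is 2-fold, and 958 above 2. The spread did not follow the level in 1 direction. With all genes divided by level into 10 equal bins, the dimmest had the smallest median range, 0.63, the third the largest, 1.75, the seventh 0.73 and the brightest 0.80. The added 16 shrinks differences in the dimmest bin, whose median signal was 9.1. Samples 1 and 2 were the closest pair, with 15.2% of genes over 1 log2 unit apart, against 24.8% for samples 1 and 3 and 21.6% for samples 2 and 3. When the probe set of each gene and the genes kept were chosen again from 2 arrays, 1341 genes differed by more than 1 log2 unit without sample 3, 2061 without sample 1 and 2426 without sample 2.

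**Figure D4:**
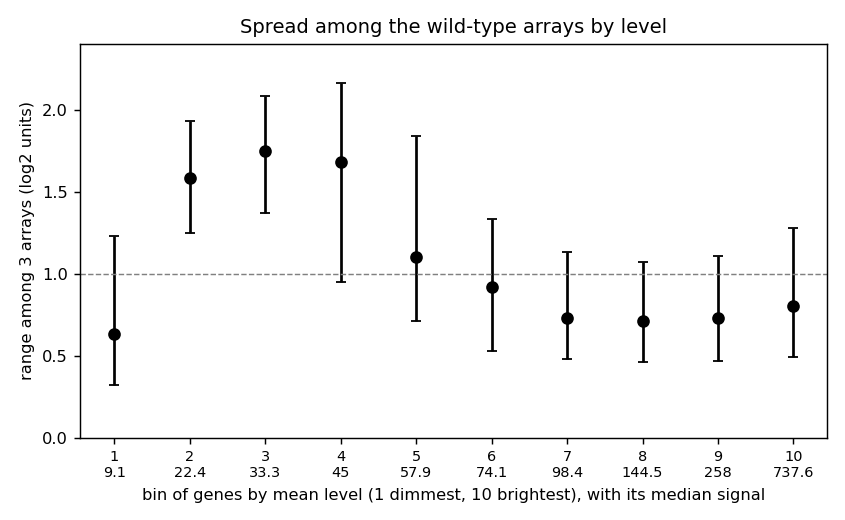
Median range among the 3 wild-type arrays (points, with bars from the lower to the upper quartile, log2 units) for each of 10 bins of genes from the dimmest to the brightest, with the bin's median signal under its number and a dashed line at 1. The range is smallest, 0.63, in the dimmest bin, peaks at 1.75 in the third and is 0.73 in the seventh and ninth.

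To see where an array stood apart, genes were counted whose value in 1 array lay over 1 log2 unit outside both others. Sample 3 had the most: 798 genes (7.27%) were lower there and 368 (3.35%) higher. Sample 1 had 590 lower (5.37%) and 146 higher (1.33%), and sample 2 had 436 lower (3.97%) and 100 higher (0.91%). Brightness divided them: of the 6072 genes above the upper quartile of probe sets, 495 were lower in sample 3, 149 in sample 1 and 58 in sample 2. Other probe sets of the same gene could be asked for 325 of the genes lower in sample 3, and in 224 all of them lay in the same direction. For genes lower in sample 2 this was so in 31 of 67. The median difference over all 10984 genes was 0.09 in sample 3, against the mean of the others, and 0.04 in sample 2.

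In the labels, samples of the same number share a source code across genotypes, so the phd3 null array of the same number was set beside each wild-type one. Of the 798 genes lower in wild-type sample 3, 640 (80.2%) were also below the mean of the other null arrays in null sample 3, where 46.3% of all genes were. Of the 368 higher genes, 311 (84.5%) were higher in null sample 3, against 53.7% of all genes. The shares for sample 1 were 64.1% of lower and 74.0% of higher genes, against 49.5% and 50.5%, and for sample 2 they were 57.3% and 62.0%, against 47.0% and 53.0%. The differences of samples 1 and 2 also correlated with those of each other's null array. Over all 10984 genes, the differences in wild-type sample 1 had a Pearson correlation of 0.281 with null sample 1 and 0.183 with null sample 2. Those in wild-type sample 2 had 0.106 and 0.161. Wild-type sample 3 had 0.487 with null sample 3 and -0.337 and -0.292 with null samples 1 and 2. Each difference is taken against the mean of the other arrays, so a pattern in sample 3 enters those of samples 1 and 2 with opposite sign. The correlations across numbers are therefore not separate from that of sample 3. What same-numbered samples shared beyond the code is not in the labels.

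The 12 genes of widest gap below the others in sample 3 belonged to several functions. Ptgr1, which inactivates prostaglandins and leukotriene B4, had the widest gap, at 2926, 2446 and 111, a difference of -4.41 log2 units from the mean of the others. Its null values were 1280.3, 609 and 17.8. Lpl, lipoprotein lipase, read 3478, 4760.0 and 227 (4119, 3309 and 281 in the null arrays), and Abcc1, which exports leukotriene C4 and glutathione conjugates, 4431, 3526 and 281 (3068, 2578 and 124). Bnip3, which targets mitochondria for removal, read 3949.7, 2575 and 196 (4396, 4817 and 202), so in both genotypes the third array was lowest. Vcan, the proteoglycan versican made by monocytes, read 1799.7, 1780.5 and 135, and Prkar2b, a subunit of protein kinase A, 1197, 772 and 58.2. F13a1, given above, also stood in this set, together with Krcc1, Ccdc88b, Tfec, Abi3 and 2310011J03Rik. Among all genes at or above the median level, 798 (7.27%) were lower in sample 3. They included 3 of the 10 eicosanoid and lipid mediator genes at that level and 3 of the 11 monocyte markers.

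Of the function lists, glycolysis had the most members lower in sample 3, 12 of 19, where 7.27% of all genes were. Tpi1, triosephosphate isomerase, read 2823, 2032 and 308, and Pdk1, which keeps pyruvate out of mitochondria, 1819, 935 and 190.1. The list's median difference in sample 3 was -1.50 log2 units, and -1.96 in null sample 3. Slc2a3, the glucose transporter GLUT3, went the other way at 1652, 1745 and 3613, over 1 log2 unit higher in sample 3. The dim aldolase gene Aldoc, at 8.6, 54.1 and 119.4, and Pfkfb4, which makes an activator of glycolysis, at 255, 229.6 and 382, also had their highest value there. Pfkm, Pfkfb4 and Hk1 had ranges of at most 0.89.

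Among HIF targets outside glycolysis 9 of 23 were lower in sample 3, against the same 7.27%. Ero1a, an oxidase that forms disulfide bonds, read 5652, 2742 and 392, and Higd1a, a mitochondrial protein, 1335, 1002 and 304. Egln3 belonged to the set too, and Pdk1 is in both lists. Cited2, Plin2 and Ankrd37 had ranges of 0.30, 0.75 and 0.85. The hypoxia response element core was in the windows of 69.5% of the genes lower in sample 3 (447 of 643, interval 65.8% to 73.1%), and in 66.1% of those higher (183 of 277), against 64.1% of all genes at or above the median level. In the other sets it was 71.1% of genes higher in sample 2 (59 of 83) and 53.6% of those lower there. The interval of the 71.1%, 60.1% to 80.5%, covers both 69.5% and 64.1%, so it cannot rank these sets. In sample 1 the share was 63.5% of higher and 59.2% of lower genes. Monocyte markers held the core in 2 of 11, and the F13a1 and Ptgr1 windows did not hold it. What part HIF had in the sample 3 differences was not tested.

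Oxidase and antioxidant genes lay low in sample 3 as well. The NADPH oxidase had 5 of 8 among the lower genes, where 7.27% of all genes were, with a median difference of -1.42, and Rap1a, a small GTPase of that list, had a range of 0.36. Glutathione and thioredoxin genes had 9 of 19. Gclm, a subunit of the enzyme that begins glutathione synthesis, read 4801, 3858 and 752, Sod2, the mitochondrial superoxide dismutase, 3767, 2247 and 538, Srxn1, sulfiredoxin, 1065, 819.8 and 164, and Txnrd1, thioredoxin reductase, 5789, 3588 and 1207. Iron genes had 4 of 11, among them the iron exporter Slc40a1 (ferroportin) at 3959.7, 2423 and 534. Beside these, sample 3 had the lowest summed monocyte signal and the highest summed B cell signal, as given above. Its neutrophil sum, mostly from S100a8 and S100a9, was 46721, against 48536 in sample 2 and 60855 in sample 1. Of the 12 neutrophil markers 6 had their lowest value in sample 3 and 6 in sample 2, against 34.9% and 29.6% of all genes. Sample 3 had array controls for Gapdh at 3491 (3′ probe set), against 8277 and 6656 in samples 1 and 2. Its ratio of 3′ to 5′ signal was 0.66, against 0.73 and 0.75, and for Actb 1.72, against 2.09 and 1.63. What part cell makeup or RNA quality had in these differences was not tested.

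B cell markers and some chaperones were among the genes higher in sample 3. Gimap6, a GTPase of lymphocytes, had the widest gap, at 9.5, 136 and 1001 (5.3, 163 and 1207 in the null arrays), then Cd69, an early activation marker, at 229, 218 and 1575 (202, 276 and 1496). B cell genes had 8 of 13 in this set, where 3.35% of all genes were. Cd79b, a chain of the B cell receptor, read 43.3, 124 and 841, Ms4a1 (CD20) 66.3, 152 and 807 and Ighm, the IgM heavy chain, 104, 501 and 2335. All 13 had their highest value in sample 3. None of the 9 T cell or 13 NK cell markers was in the set. Oat, ornithine aminotransferase, read 531, 533 and 2829, Snhg1, a host gene of small nucleolar RNAs, 196, 241 and 1283, Crem, a regulator of cyclic AMP responses, 157, 104 and 857, Slc16a1, a lactate transporter, 16, 101 and 572, and Nr4a2, an orphan nuclear receptor, 65.2, 94.3 and 569. B3gnt5 completed the 12.

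Among chaperones 4 of 17 were over 1 log2 unit higher in sample 3 and 11 of 17 had their highest value there, against 3.35% and 40.2% of all genes. Hspa1a and Hspa1b, the inducible Hsp70 genes, read 116, 171 and 1175 and 364, 523 and 3249, and the null arrays 164, 67.2 and 1158 and 468, 262 and 3338. Their sequences are near-identical, so their signals may mix. Dnaja1, an Hsp40, read 1555, 1492 and 5078, and Hsph1, Hsp110, 70.7, 154 and 493. The heat shock motif GAANNTTC was in the windows of 9 of 14 chaperone genes, 10.8% of genes higher in sample 3 (30 of 277, interval 7.4% to 15.1%) and 7.32% of all genes at or above the median level. The chaperone list holds known heat shock genes, so its count describes the list and is not evidence of binding. Other windows of Dnaja1 did not hold the motif. The 120 bases of the Hsp70 genes and of Dnaja1 that hold it are shown with the motif in capitals. They lie on chr17:34972201-34972320 for Hspa1a (- strand), chr17:34959283-34959402 for Hspa1b (- strand) and chr4:40722284-40722403 for Dnaja1 (+ strand), and those of Hspa1a and Hspa1b are the same letters.
Hspa1a: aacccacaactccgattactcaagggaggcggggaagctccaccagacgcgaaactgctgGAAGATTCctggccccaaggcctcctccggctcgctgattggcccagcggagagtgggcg
Hspa1b: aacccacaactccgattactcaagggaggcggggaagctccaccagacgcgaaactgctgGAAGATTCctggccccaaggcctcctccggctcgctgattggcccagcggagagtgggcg
Dnaja1: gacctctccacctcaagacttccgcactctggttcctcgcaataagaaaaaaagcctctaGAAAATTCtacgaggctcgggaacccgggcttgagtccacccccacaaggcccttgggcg

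Ribosomal genes differed less in size and mostly in 1 direction. All 28 genes of the ribosomal list at or above the median level had their highest value in sample 3, and 27 their lowest in sample 1, against 40.2% and 35.4% of all genes. Rps18 read 2169, 3523 and 6048, and Rpsa, the laminin-receptor ribosomal protein, 1436, 2404 and 4519. The list's median difference was 0.84 in sample 3 and -0.85 in sample 1, and 1.15 in null sample 3. None of the 28 stood over 1 log2 unit apart. In the wider family of all 44 measured at or above the median level, 41 had their highest value in sample 3 and 39 their lowest in sample 1. The exceptions to the first were Rps27, Rps27l and Rpl7l1. Of the 44, 2 were over 1 log2 unit higher in sample 3, close to the 3.35% of all genes that were. They were Rpl22l1 at 497, 456 and 1845 and Rpl12 at 87.5, 70.9 and 193.

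**Figure D5:**
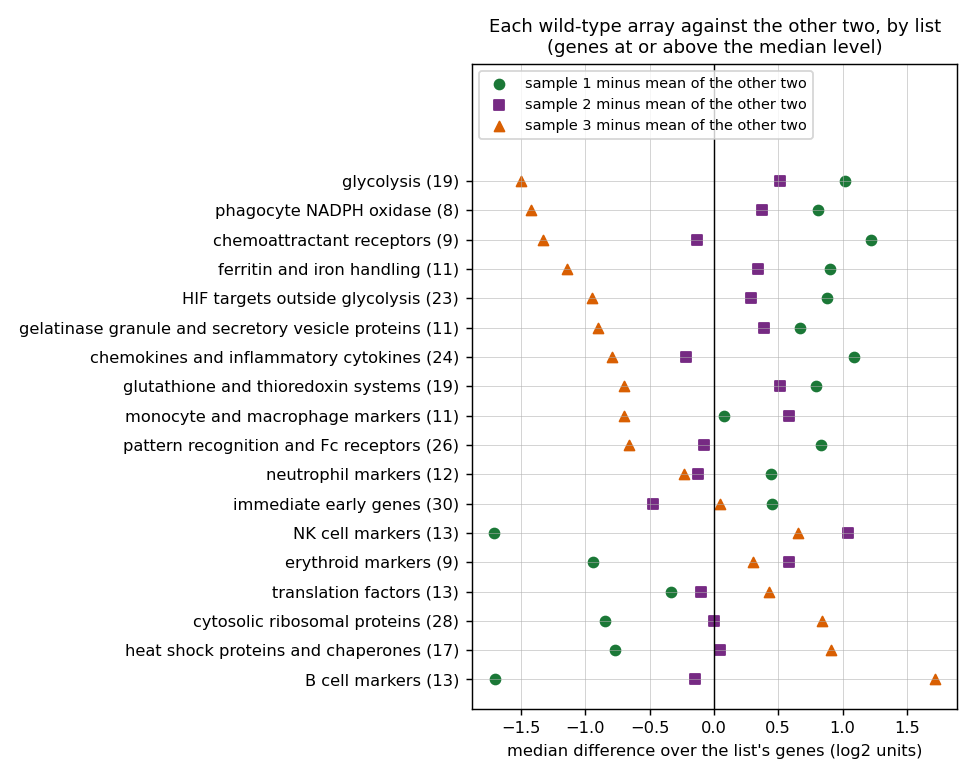
For 18 lists, the median over genes of 1 wild-type array minus the mean of the other two, in log2 units, for samples 1 (circles), 2 (squares) and 3 (triangles), with the number of genes in parentheses. Glycolysis lies at -1.50 in sample 3 and 1.02 in sample 1, and B cell markers at 1.72 in sample 3 and -1.70 in sample 1.

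In sample 1, inflammatory genes were the most frequent among the higher genes of the function lists. Of chemokines and cytokines 9 of 24 were over 1 log2 unit higher there, where 1.33% of all genes were, and the list's median difference was 1.09. Il1rn, the natural antagonist of interleukin-1, read 4294, 843 and 487, Cxcl3 994, 192 and 41.3 and Ptgs2 (COX-2), which starts prostaglandin synthesis, 3431, 1209 and 504. Ccrl2, a receptor that presents the chemoattractant chemerin, read 4205, 632 and 583, with 1786, 1030.1 and 313 in the null arrays. Chemoattractant receptors had 4 of 9 in this set, among them Fpr2, for formylated peptides, at 3683, 1356 and 883, and C5ar1, for complement C5a, at 761, 312 and 147. Of immediate early genes, 3 of 30 were in the set, against 4 of 30 higher in sample 3, and the list's median difference was 0.45 in sample 1 and 0.05 in sample 3. Its members Egr2 and Egr3, transcription factors, read 1465, 376 and 179 and 934, 79.3 and 202, the cross-linking enzyme Tgm2 3906, 894 and 601 and the kinase Plk2 1020.5, 223 and 226. Rab20, Gde1, Trim9 and Adgb were the others.

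Genes lower in sample 1 included those of lymphocytes. NK cell markers had 7 of 13 in this set, where 5.37% of all genes were, and T cell markers 4 of 9. Ccl5, a chemokine stored by NK and T cells, read 231, 1274 and 1572, Eomes, a transcription factor of NK cells, 51.5, 273 and 419, and Nkg7 68, 295 and 261. Pou2af1, a co-activator in B cells, read 14.1, 179.8 and 499.7. The other genes of widest gap were mostly dim, such as Cerk, ceramide kinase, at 2.8, 202 and 255, and Castor1, an arginine sensor, at 3.3, 159 and 161. Tsr1, Rcc2, Ablim1, Agap2, Nrip2, 2610316D01Rik, Ebpl, H1f10 and Ppp6r2 made up the rest.

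In sample 2 the higher set was small. NK cell markers had 3 of 13 in this set of 100 genes, where 0.91% of all genes were. Of these receptors, Klrd1 (CD94) read 155, 1342 and 348, Klre1 176, 548 and 198 and Ncr1 (NKp46) 56.8, 194 and 50. AW112010, a transcript of unclear role, read 512, 1989 and 631, and the monocyte receptor Ccr2, given above, also belonged here. The other genes of widest gap, Vps33b, Klc1, Sema3f, Lztr1, Sec13, Hikeshi, Npy, Zbtb37 and Trappc1, had mean signals of at most 147.5. Among genes lower in sample 2, Nr4a3, an orphan nuclear receptor, read 867, 104 and 1046 and Egr1, an immediate early gene, 3706, 385 and 1340.5. Of immediate early genes, 3 of 30 were in that set, where 3.97% of all genes were, and 18 of 30 had their lowest value in sample 2, against 29.6% of all genes. In the null arrays Nr4a3 read 48.6, 71.9 and 870.2, so there the lowest array was the first. Among neutrophil markers Il1r2 and Hdc were lowest in sample 2, at 344 and 832. Mir670hg, Csdc2, Gpr19, Zfp296, Cmpk2, Gm28729, Sec14l2, Utp14b, Krtap26-1, Mgat4e and Zmpste24, the rest of the 12 widest gaps, were dim.

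Sex-linked genes differed between the mice, whose sex the labels do not give. Xist, the RNA that silences 1 X chromosome in females, read 292, 1180.4 and 1061, and the Y-linked Eif2s3y 558, 54 and 38.7. Sample 1 was the lowest for the first and the highest for the second. The Y-linked Kdm5d read 96.5, 47.4 and 16.1 and Uty 107, 35.4 and 75.8, and the X-linked Ddx3x, which escapes silencing, 2996, 3007 and 3790.1.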

How the data were processed

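RNA of blood neutrophils was hybridised to 6 Affymetrix arrays, of which the 3 wild-type ones are described here and the 3 phd3 null ones set beside them. The deposited table holds linear intensities from MAS5, as the submitters' processing notes name it, with its version not given in the sources used here. Their mean after trimming 2% at each end was from 99.6 to 99.9 in all 6 arrays. Detection calls were not used here, and the number of arrays limits the precision.

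Of 45101 probe sets, 64 were controls, 34945 named 1 gene in the platform annotation, 932 several and 9160 are unnamed here. Levels are log2(signal + 16), which shrinks differences between dim genes, with 1 probe set per gene (highest mean over the 3 arrays). Of 18193 genes, 18032 matched RefSeq by gene ID and 0 symbols changed. Differences between arrays were counted over the 10984 genes with a mean of at least 5.92, the median of all probe sets. Promoters are RefSeq windows of 300 bases, GRCm38.p6. Motifs were ACGTG or GCGTG, GAANNTTC and TATAAA, on both strands, counted once per gene over all its windows.

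Genes were named by rule: the 25 brightest, the 10 dimmest, the 10 steadiest of the top 10% by level, up to 12 per array and direction by gap, up to 5 brightest and 4 most variable per list, and all neutrophil markers and sex-linked genes. Other genes named, the promoter count of the 100 brightest genes and the promoters printed were chosen after their values were seen. The members and lists were chosen with earlier results of these data known. The lists held 806 genes, of which 711 had a probe set with 1 symbol. Labels give separate mice, and no test was made. Computation used Python 3.11.15, pandas 2.3.3 and numpy 2.4.6, and the counting of arrays that stand apart was tested on simulated data. Alternatives were the pseudocount, quantile normalization, the handling of probe sets, the filter, the threshold and leaving out each array.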

Additional observations from a re-analysis of the deposited data

How the results depend on the processing

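Of the 100 brightest genes, 62 were kept with the mean of all probe sets, 43 without probe sets that may bind several transcripts, and 96 after quantile normalization. Leaving out 1 array kept 82 to 94. The number of function lists with a median in the top 10%, 18, ranged from 17 to 21. The 4180 genes with a range above 1 log2 unit became 9270 with no filter, 1947 with the upper quartile filter, 2527 with a pseudocount of 64 and 958 at a threshold of 2 log2 units. Without 1 array, with probe sets and filter chosen again, they were 1341 to 2426. The 2438 genes in which an array stood apart became 6513, 1008, 1096 and 359 under the same 4 settings. Those lower in sample 3 (798) became 1360, 495, 451 and 122, and those higher (368) became 1218, 178, 170 and 22. The share of genes lower in sample 3 with a hypoxia response element core, 69.5%, was 64.5% with no filter and 65.2% with the mean of all probe sets.

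The sample 3 differences of the 13 lists tried under every scaling and probe set setting kept their sign. The list differences that changed sign were all in sample 2. Without multi-transcript probe sets, ribosomal proteins went from 0.0 to -0.01 and erythroid markers from 0.58 to -0.01. Chaperones went from 0.05 to -0.02 after quantile normalization, -0.20 with the mean of all probe sets and -0.01 without multi-transcript ones. For single genes, the sample 2 difference of Gpr19 turned to 1.39 and Sema3f to -0.06, and the sample 1 difference of Trim9 to -0.40, without multi-transcript probe sets. Klc1 in sample 2 turned to -0.07 with the mean of all probe sets, and Zbtb37 to -1.29 with a pseudocount of 1. The cause was not tested. No paired analysis was made, since no result here comes from a test and the genotypes were not compared. The range is widest in bins 2 to 4 of 10 by level, but the level filter kept almost none of their genes. Of the bins that were counted, the fifth had the widest median range, 1.10, with 55.0% of its genes over 1 log2 unit. Gaps of the dimmer counted genes are therefore the least certain. There are 3 mice, samples that hold markers of other blood cells, and no normal oxygen.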
